A study of Rattus norvegicus with 12 samples.

Results

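Mir21, Mir221 and Mir222 were chosen by gene name as 3 of the 444 features in a table of microRNA levels in rat liver, because all are known to rise in injured and regenerating liver. The rule uses names and no measured value, and it was set with earlier results of these data known. The rats were male Sprague-Dawley, an outbred laboratory stock, and were dosed by mouth on 5 days from an age of 7 weeks. Control rats received vehicle (sterile distilled water), CAF rats caffeine at 120 mg/kg, DEX rats dextromethorphan hydrobromide monohydrate at 100 mg/kg, and CAF+DEX rats both drugs at those doses. Each group held 5 rats, liver was taken 1 h after the last dose, and 3 libraries per group were analysed, 12 in all. Nothing in the labels ties a library to a rat, so p-values measure only the spread between these samples, which may be technical.

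A microRNA is cut from a hairpin transcript as a short strand that guides a silencing complex to messenger RNAs through its seed, the bases near its 5′ end. MiR-21 is abundant in many cell types and represses transcripts such as Pdcd4, which restrains growth. MiR-221 and miR-222 lie side by side on the X chromosome, are known to be made from a common primary transcript, and repress the cell cycle inhibitor p27 (Cdkn1b). In liver, miR-21 and miR-221 are known for their rise during regeneration after partial removal of the organ and in fibrosis and liver cancer.

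The mature strands show which of the 3 microRNAs can share targets, and are given with the seed (bases 2 to 8) in capitals. All 3 genes were matched by symbol in a RefSeq table of the GRCr8 build.
rno-miR-21-5p: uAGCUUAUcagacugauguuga
rno-miR-221-3p: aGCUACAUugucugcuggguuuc
rno-miR-222-3p: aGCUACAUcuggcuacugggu
MiR-221-3p and miR-222-3p have the same seed and the same first 8 bases, and are identical at 11 of 21 positions when aligned from the 5′ end without gaps. No other of the 724 mature entries in the table had this seed, and none but miR-21-5p had the seed of miR-21-5p.

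The level of a feature covers reads from its whole hairpin, so strands of the 2 arms are summed. The hairpins are shown because they are what was counted, with both mature arms in capitals.
hairpin of Mir21: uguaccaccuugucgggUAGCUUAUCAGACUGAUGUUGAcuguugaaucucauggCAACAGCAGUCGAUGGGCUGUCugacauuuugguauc
hairpin of Mir221: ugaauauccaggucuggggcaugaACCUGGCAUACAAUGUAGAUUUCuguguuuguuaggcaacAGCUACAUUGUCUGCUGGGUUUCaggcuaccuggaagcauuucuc
hairpin of Mir222: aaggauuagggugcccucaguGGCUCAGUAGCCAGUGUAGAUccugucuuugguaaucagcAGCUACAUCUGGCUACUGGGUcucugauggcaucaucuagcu
These RefSeq hairpins were as long as the deposited features for all 3 genes. Mir21 (ENSRNOG00000035480) lies on the minus strand of chromosome 10 from 71405257 to 71405348 on build rn7. Mir222 (ENSRNOG00000035581) lies on the plus strand of chromosome X from 3428904 to 3429006, and Mir221 (ENSRNOG00000035631) follows it from 3429465 to 3429573, after a gap of 458 bases with no other listed feature. In the RefSeq annotation of GRCr8, Mir21 is in no other gene and its neighbours are Tubd1 and Vmp1, while Mir221 and Mir222 both lie within the 2 long noncoding RNA genes LOC120099382 and LOC120099384. Exon and intron positions were not analysed here.

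The libraries held 2863572 to 3418568 reads, recovered from the deposited values, and 258 to 273 features above 0. Mir192, a microRNA of hepatocytes, was the most abundant feature of all 12 libraries with 14.1 to 16.4% of reads, which bears on the labelled tissue. Levels are given as FPKM, the authors' reads per kilobase of hairpin and per 1000000 reads on listed features. Since mature strands do not lengthen with the hairpin, reads per 1000000 are given as well.

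The 3 microRNAs had very different recorded levels in the liver libraries, in the order Mir21, Mir221, Mir222 in all 12. This order is one of reads, and whether each microRNA was captured equally well was not tested. Mir21 was among the most abundant features, ranked 4 to 6 of 444 by FPKM, with 4.48 to 6.42% of a library's reads (mean 170847 reads). Mir221 ranked 103 to 116 and averaged 195 reads per 1000000 (417 to 841 reads in a library). Mir222 ranked 164 to 174 and averaged 8.77 reads per 1000000, with 20 to 38 reads in a library. Mir21 was 235 to 494 times as high as Mir221 in FPKM, and Mir221 was 11.9 to 33.8 times as high as Mir222. The 2 genes that sit together and share a seed thus differed more than 10-fold in recorded level in each library.

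The group means of Mir21 lay between 570465 and 601243 FPKM. In Control its FPKM was 590426 in library 1, 558662 in library 3 and 604660 in library 4. In CAF it was 593050 in library 1, 576829 in library 2 and 633851 in library 5. In DEX it was 549708 in library 1, 572976 in library 2 and 652418 in library 4. The ranges of these 3 groups overlap. In CAF+DEX it was 698358 in library 1, 525614 in library 2 and 487422 in library 5, so that this group held the highest and the 2 lowest libraries of the 12. Group means were 601243 ± 29381 FPKM (SD, n = 3) in CAF, 591701 ± 53855 in DEX, 584583 ± 23549 in Control and 570465 ± 112393 in CAF+DEX. No neighbours in this order differed by more than the SD of either group.

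Mir221 varied more, and its 5 lowest libraries all came from drug-treated groups. These 5 are also all the libraries numbered 2 or 5 in the column headers, and no Control library has either number. What the numbers mark is unknown, so this pattern cannot be tied to the drugs. In Control its FPKM was 1886 in library 1, 2104 in library 3 and 1694 in library 4. In CAF it was 2291 in library 1, 1489 in library 2 and 1283 in library 5. In DEX it was 2336 in library 1, 1479 in library 2 and 2294 in library 4. In each of these 2 treated groups, 1 library stood apart from the other 2, above them in CAF and below them in DEX. In CAF+DEX it was 2037 in library 1, 1394 in library 2 and 1138 in library 5. The groups overlapped, with means of 2036 ± 483 FPKM (SD, n = 3) in DEX, 1895 ± 205 in Control, 1688 ± 532 in CAF and 1523 ± 463 in CAF+DEX. The steps between neighbours in this order were smaller than the larger SD of each pair.

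Mir222 was rare in every library. In Control its FPKM was 63.6 in library 1, 107.9 in library 3 and 93.9 in library 4, so that Control held both the lowest and the highest of the 12 libraries. In CAF it was 67.8 in library 1, 81.2 in library 2 and 77.6 in library 5. In DEX it was 102.3 in library 1, 81.0 in library 2 and 75.0 in library 4. The CAF libraries lay in the lower part of the Control range, and DEX overlapped both. In CAF+DEX it was 92.6 in library 1, 83.6 in library 2 and 95.3 in library 5. All 3 CAF+DEX libraries lay above all 3 CAF libraries, by as little as 83.6 against 81.2 FPKM, which are 28 and 26 reads. This was the 1 separation among the 15 pairings of a member with a comparison of 2 groups, and 7.17% of the 293 tested features did not overlap in CAF+DEX against CAF. For the other comparisons, where no member separated, the share was 14.7% in CAF against Control, 10.9% in DEX against Control, 14.7% in CAF+DEX against Control and 13.7% in CAF+DEX against DEX. Group means of Mir222 were 90.5 ± 6.14 FPKM (SD, n = 3) in CAF+DEX, 88.4 ± 22.7 in Control, 86.1 ± 14.3 in DEX and 75.5 ± 6.94 in CAF.

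**Figure D1:**
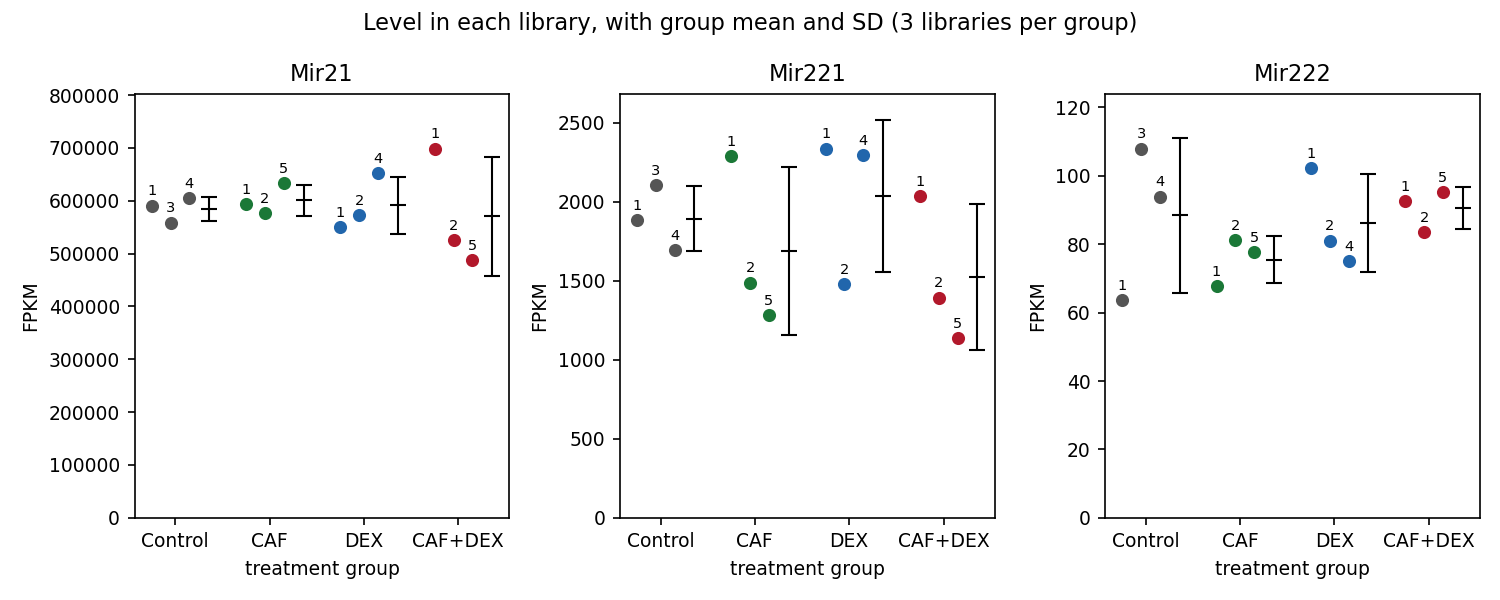
Level of Mir21, Mir221 and Mir222 (FPKM, linear axes from 0) in each library by treatment group; points are libraries with their number, and the bar at the right of each group is its mean with the SD of 3 libraries. Mir21 runs from 487422 to 698358 FPKM, both ends in CAF+DEX, while the group means stay between 570465 and 601243.

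The series asks how liver microRNAs differ after each drug alone and after both. No member passed the test in any comparison. All 293 features above 0 in at least 3 libraries entered 1 limma model of log2(FPKM + 3.80), and all 3 members were above 0 in all 12 libraries. The added 3.80 FPKM is the 10th percentile of the table's values above 0, and it shrinks the fold changes of rare features. The p-values of a comparison were adjusted over its 293 features by the Benjamini-Hochberg method, with a threshold of 0.05. The moderated F test for any difference between the 4 groups gave limma adjusted p = 0.989 for Mir21, 0.804 for Mir221 and 0.966 for Mir222, with 0.341% of features called.

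For Mir21 the estimated differences were small. Its log2 difference from Control was 0.04 in CAF (95% interval -0.20 to 0.28, limma adjusted p = 0.95), 0.01 in DEX (-0.23 to 0.26, limma adjusted p = 1) and -0.05 in CAF+DEX (-0.29 to 0.19, limma adjusted p = 0.986). CAF+DEX stood at -0.09 against CAF (-0.33 to 0.15) and at -0.07 against DEX (-0.31 to 0.18). Over these 5 comparisons the intervals held changes between 0.793-fold and 1.22-fold, so changes beyond those bounds lie outside every interval. The fit uses 1 spread for all groups, although the log2 SD of Mir21 was 0.06 in Control and 0.27 in CAF+DEX. The intervals of comparisons with CAF+DEX may therefore be too narrow. The CAF+DEX estimate against Control moved to -0.21 without CAF+DEX library 1 and to 0.05 without CAF+DEX library 5. Mir21 ranked 5 in every Control, CAF and DEX library, and quantile normalization gives equal ranks the same value. That setting therefore could not show a difference of Mir21 between these groups, and gave 3.6e-15 for CAF and for DEX against Control. With ranks of 4 to 6, CAF+DEX stood at -0.018 against Control in it.

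Mir221 had wider intervals. Its log2 difference from Control was -0.21 in CAF (95% interval -0.75 to 0.34, limma adjusted p = 0.87), 0.08 in DEX (-0.46 to 0.62, limma adjusted p = 1) and -0.35 in CAF+DEX (-0.89 to 0.19, limma adjusted p = 0.867). The lowest estimate was -0.43 for CAF+DEX against DEX (-0.97 to 0.11, SE 0.25, limma adjusted p = 0.623), and CAF+DEX against CAF gave -0.15 (-0.69 to 0.40). These intervals reach from 0.509-fold to 1.54-fold. The CAF estimate against Control moved to -0.45 when CAF library 1 was left out and to -0.03 when CAF library 5 was, and CAF+DEX against CAF turned to 0.10 without CAF library 1. CAF+DEX against Control was -0.58 without CAF+DEX library 1 and -0.16 without CAF+DEX library 5, and CAF+DEX against DEX was -0.66 and -0.24 without the same libraries and -0.65 without DEX library 2.

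Mir222 gave log2 differences from Control of -0.19 in CAF (95% interval -0.70 to 0.33, limma adjusted p = 0.87), -0.02 in DEX (-0.53 to 0.50) and 0.06 in CAF+DEX (-0.45 to 0.58, limma adjusted p = 1 for both). For CAF+DEX against CAF, where the libraries separated, the difference was 0.25 (-0.26 to 0.77, SE 0.24, limma adjusted p = 0.988). CAF+DEX against DEX gave 0.08 (-0.44 to 0.59). Its intervals reach from 0.614-fold to 1.70-fold. The CAF estimate against Control was -0.40 without Control library 1 and -0.04 without Control library 3.

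Pooling the drugs' arms gave 6 libraries on each side. Mir221 had FPKM values from 1138 to 2291 with a median of 1442 in the 6 libraries with caffeine, and from 1479 to 2336 with a median of 1995 in the 6 without. The ranges overlapped, and the caffeine main effect was a log2 difference of -0.32 (SE 0.18, 95% interval -0.70 to 0.07, unadjusted p = 0.0968, limma adjusted p = 0.437), with 0.683% of features called. This was the smallest p among the 24 values that the 3 members had over 8 contrasts. Libraries numbered 5 in the headers all had caffeine, and those numbered 3 or 4 all lacked it, so number and caffeine are partly confounded. For Mir221, log2 deviations from group means partly followed the number. Treated libraries numbered 1 stood at 0.48 in CAF, 0.23 in DEX and 0.46 in CAF+DEX. Those numbered 2 stood at -0.14, -0.43 and -0.09 in the same order, and CAF and CAF+DEX libraries 5 at -0.35 and -0.38. Control library 1 stood at -0.001, and libraries 4 differed in sign, at -0.16 in Control and 0.20 in DEX. The fit with the number as a block, where the Mir221 effect changed sign, is given below. The caffeine main effect was -0.01 (-0.18 to 0.16) for Mir21 and -0.06 (-0.42 to 0.31) for Mir222, whose signs turned to 0.01 with median-of-ratios scaling and to 0.08 with quantile normalization. The dextromethorphan main effect was -0.04 for Mir21, -0.03 for Mir221 and 0.12 for Mir222. The interaction, which asks whether both drugs together differ from the sum of each alone, was -0.11 (SE 0.16) for Mir21, -0.22 (SE 0.35) for Mir221 and 0.27 (SE 0.34) for Mir222. For Mir222 it moved to 0.48 when Control library 1 was left out, to 0.11 when Control library 3 was and to 0.18 when DEX library 4 was.

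Of the 24 values, 0 passed the threshold and 0 had an unadjusted p under 0.05, in limma on log2 values and in limma-voom on recovered reads alike. Over all features the share called was 0.683% in CAF against Control and 0.0% in each of DEX against Control, CAF+DEX against Control, CAF+DEX against CAF, CAF+DEX against DEX, the interaction and the dextromethorphan main effect. In the contrasts with 0 calls, limma gave 13 to 30 features an unadjusted p under 0.05, and limma-voom also called 0 and gave 14 to 28 features such a p. Against these shares, 0 calls among 3 members is no result about the members, and a p that misses the threshold does not show that levels were equal.

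**Figure D2:**
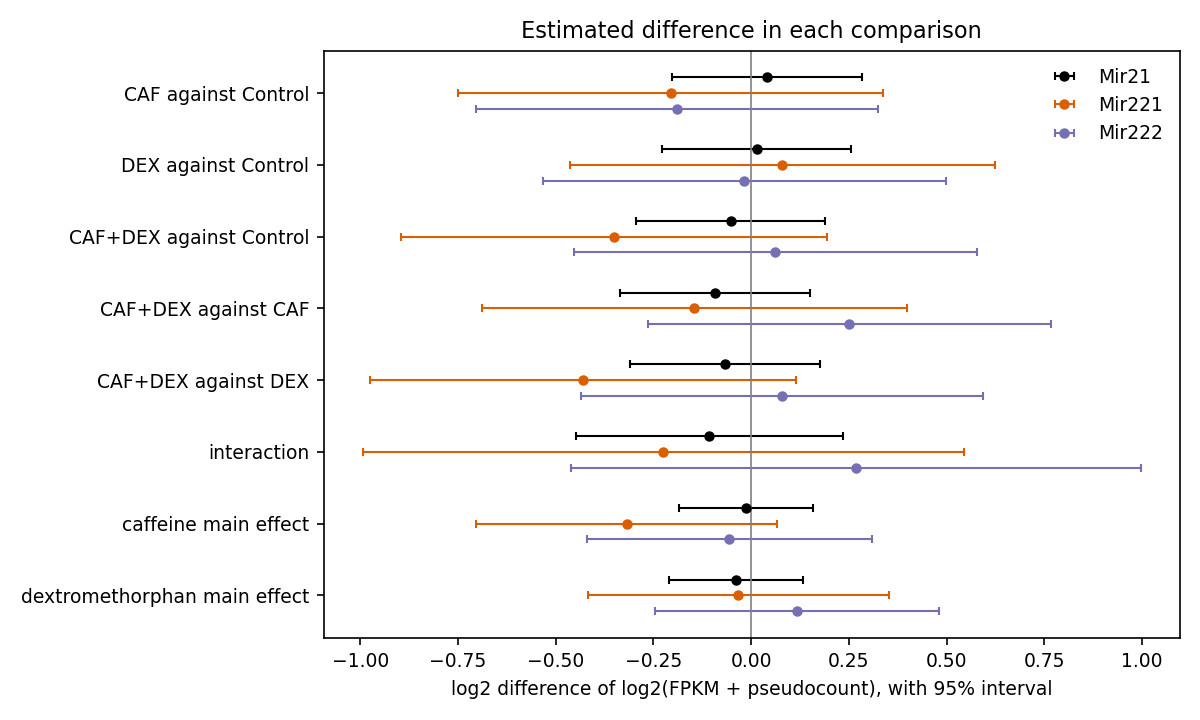
Log2 difference of each member in 8 comparisons (points) with 95% intervals from the limma fit of 12 libraries (bars); the vertical line marks no difference. All 24 intervals hold 0, those of Mir21 being the narrowest (SE 0.11 in the comparisons of 2 groups, against 0.25 for Mir221 and 0.24 for Mir222).

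The spread between libraries of a group differed among the 3 microRNAs. The pooled SD within groups on the log2 scale was 0.16 for Mir21, 0.36 for Mir221 and 0.23 for Mir222. Each was set beside the other tested features whose mean log2 level lay within 1 of its own, as a description. For Mir21 there were 7 such features, with SDs from 0.04 to 0.11, all smaller than that of Mir21. For Mir221 there were 26, with a median SD of 0.17, and 24 of them had a smaller SD. For Mir222 there were 32, with a median of 0.36, and 8 had a smaller SD. By pooled SD, Mir21 and Mir221 were thus among the more variable features of their level, and Mir222 among the steadier ones. For Mir21 this rests largely on CAF+DEX. Its log2 SD was 0.06 in Control, 0.07 in CAF, 0.13 in DEX and 0.27 in CAF+DEX, where the 7 features of like level had a median pooled SD of 0.07.

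The spread was also set beside the error of counting alone, as a description. The squared deviations of reads within groups were 2176 times those of pure counting for Mir21 and 37.9 times for Mir221, where features of like level had medians of 269 and 6.15. For Mir222 they were 0.763 times those of counting, against a median of 1.67. The libraries' coefficient of variation for Mir222 was 15.9%, and counting alone at its mean of 27.8 reads gives 19.0%. Differences between libraries in Mir222 beyond counting error were therefore not detectable at this depth. These figures cover counting error only, since reads need not be independent molecules.

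Within groups, the spread was uneven. For Mir21 the highest library was 1.08 times the lowest in Control, 1.10 in CAF, 1.19 in DEX and 1.43 in CAF+DEX. For Mir221 this ratio was 1.24 in Control, 1.79 in CAF, 1.58 in DEX and 1.79 in CAF+DEX. Mir222 had its widest ratio in Control, at 1.70, and its narrowest in CAF+DEX, at 1.14. Differences in spread between groups of 3 were not tested.

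**Figure D3:**
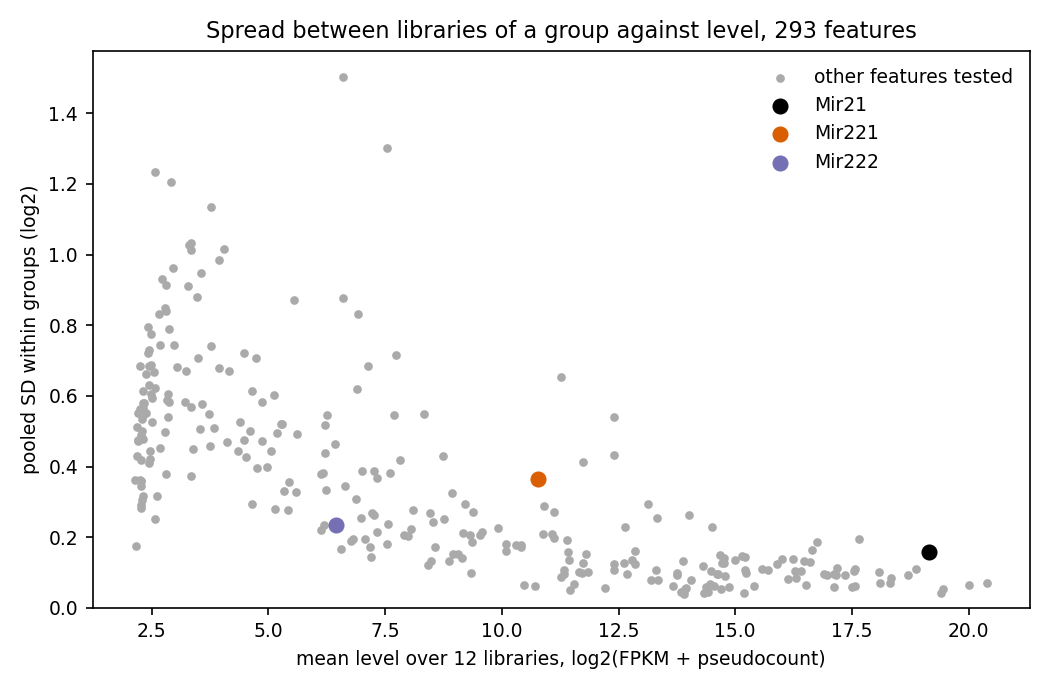
Pooled SD within treatment groups (log2 scale) against mean level, log2(FPKM + pseudocount), for the 293 tested features; grey points are other features. Mir21 (SD 0.16) lies above the 7 features of like level, Mir221 (0.36) above 24 of 26 and Mir222 (0.23) above 8 of 32.

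MiR-221 and miR-222 are known to come from a common transcript, so their levels over libraries were compared. No correlation was detected. Pearson's r over 12 libraries was -0.02 (permutation p = 0.938) and Spearman's rho was 0.00 (permutation p = 1), and r was 0.07 without the 2 libraries farthest from the median of Mir221. Taken as deviations from group means, r was -0.03 (permutation p = 0.936). For Mir21 and Mir221 r was 0.44 (permutation p = 0.15) and rho 0.29 (permutation p = 0.355). That r fell to 0.09 without CAF+DEX libraries 1 and 5, so it rests on the libraries where both were highest or lowest within CAF+DEX. For Mir21 and Mir222 r was -0.28 (permutation p = 0.371) and rho -0.48 (permutation p = 0.122). Adjusted over the 3 pairs, the permutation p-values for r were 0.938, 0.451 and 0.557 in the order given. Mir222's counting error, at 20 to 38 reads, limits any r with it.

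The ratio of Mir221 to Mir222 within a library does not depend on how libraries are scaled. Control libraries ran from 18.0 to 29.7, CAF from 16.5 to 33.8, DEX from 18.3 to 30.6 and CAF+DEX from 11.9 to 22.0. The groups overlap, with CAF+DEX holding the lowest ratio. On the log2 scale CAF+DEX stood at -0.51 against DEX (exact permutation p = 0.2), -0.42 against Control (exact permutation p = 0.4) and -0.41 against CAF (exact permutation p = 0.5). CAF stood at -0.01 and DEX at 0.10 against Control (exact permutation p = 1 and 0.7). With 1 library left out, the CAF+DEX difference ranged from -0.73 to -0.29 against DEX, from -0.63 to -0.19 against Control and from -0.62 to -0.09 against CAF. The permutation tests were two-sided and cannot go below 0.1 with 3 against 3, and all 5 adjusted values were 0.833 or more.

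**Figure D4:**
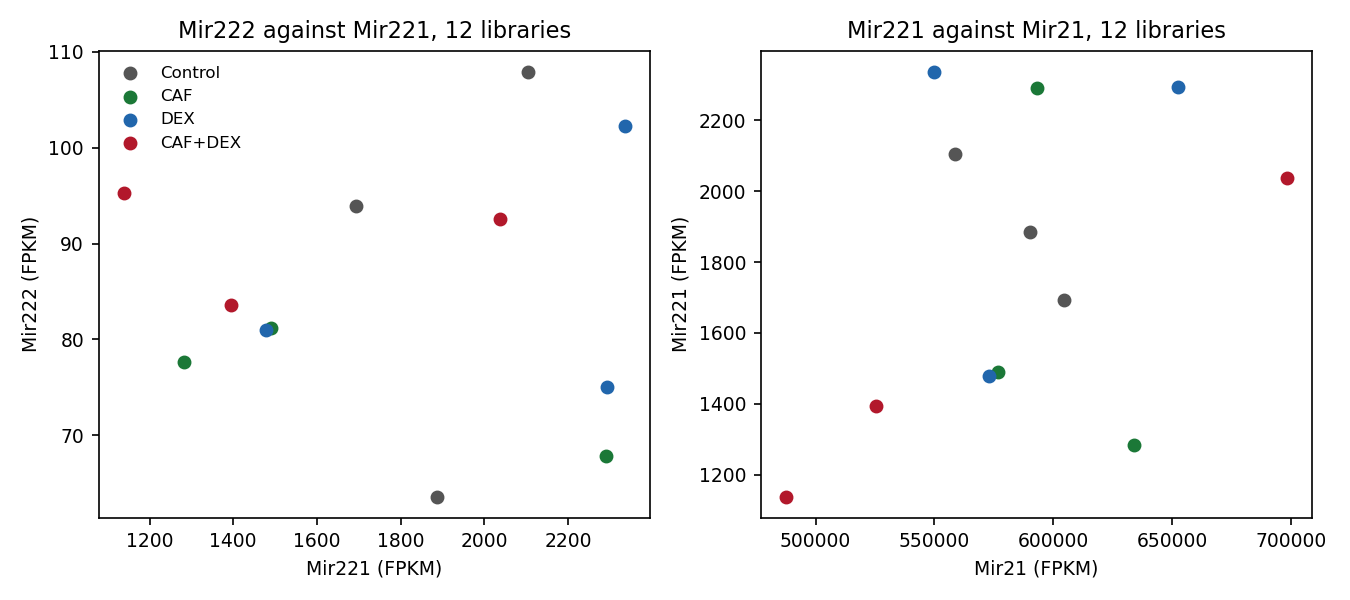
Mir222 against Mir221 (left) and Mir221 against Mir21 (right), in FPKM, with 1 point per library coloured by group; axes do not start at 0. The left panel shows no trend (r = -0.02), and in the right panel CAF+DEX libraries take both ends of the Mir21 axis (r = 0.44 on the log2 scale).

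The features whose log2 levels followed each member most closely over the 12 libraries were taken from the 135 that averaged at least 30 reads per 1000000. These r values are the highest of 134 or 135 and so are given without a p. For Mir21 they were Mir199a2 (r = 0.56), Mir100 (0.49), Mir195 (0.46), Mir221 (0.44) and Mir143 (0.43). Mir199a2 and Mir143 stand on the list of stellate and mesenchymal markers. For Mir221 they were Mir16 (r = 0.71), Mir103a2 (0.71), Mir103a1 (0.70), Mir15a (0.66) and Mir324 (0.65). Mir103a1 and Mir103a2 are copies that can share reads and count as 1 signal. As deviations from group means, r with Mir221 was 0.62 for Mir16 and 0.52 for Mir15a. For Mir222 they were Mir27a (r = 0.75) and Mir23a (0.65), which both lie on chromosome 19, then Mir365b (0.51), Mir365-1 (0.51), a pair of copies, and Mirlet7d (0.47). None of the 5 nearest to Mir221 was among the 5 nearest to Mir222, but with 5 picked from so many this says nothing about the pair. The spread of Mir222 was within counting error, so its nearest features may match noise.

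Mir16, the nearest to Mir221, followed it at a far higher level and over a narrower range. It ran from 368908 to 473522 FPKM, with group means of 450435 in Control, 447800 in DEX, 402108 in CAF and 397090 in CAF+DEX. Mir221's group means had DEX first and then Control, CAF and CAF+DEX, so both microRNAs had their 2 lower means in the groups given caffeine. Mir16 was picked for its r with Mir221 over these same libraries, so the likeness of their group means is no separate support.

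Other microRNAs linked to liver injury, repair and fibrosis were given by a list of 16, all of them tested. In CAF against Control 7 of the 16 were higher and 9 lower with a median log2 difference of -0.03, where all 293 features had a median of 0.00. In DEX against Control 6 were higher and 10 lower (median -0.04, all features 0.00), and in CAF+DEX against Control 6 were higher and 10 lower (median -0.09, all features -0.01). Only Mir146a, a brake on innate immune signalling, passed among the 16, in CAF against Control, with a log2 difference of -0.49 (SE 0.09, limma adjusted p = 0.0293), and in the caffeine main effect. In each of these contrasts 0.683% of all 293 features passed. Its call in CAF against Control was lost without Control library 1 (limma adjusted p = 0.0828), Control library 3 (0.0865), CAF library 2 (0.124), CAF library 5 (0.133) or DEX library 2 (0.054), without the filter on low values (0.0568) and with the fit limited to these 2 groups (0.0984), all at a negative difference. By the F test Mir29b-3 and Mir29b1 came next. They are 2 loci of miR-29b, a repressor of collagen messages, and can share reads. In CAF against Control they stood at 0.23 (SE 0.06) and 0.21 (SE 0.05) without passing (limma adjusted p = 0.0898 and 0.107). The mean of Mir29b-3 was 13053 FPKM in Control, 15278 in CAF, 15009 in DEX and 15556 in CAF+DEX. For Mir29b1 the means were 13658, 15755, 15668 and 16172 in that order. Control was thus the lowest group for both, below DEX as well as the groups given caffeine.

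Of 6 leukocyte markers, Mir146a and Mir142 passed as lower in CAF than in Control, where 0.683% of the 293 tested features passed. Mir146a also stands on the injury list above, so its call is the same one. The lower means of Mir221, which did not pass, were those of CAF and CAF+DEX. In CAF against Control the median log2 difference of the 6 was -0.50, and all 6 estimates were negative, while 50.9% of all features were higher. The Mir142 call, at limma adjusted p = 0.0293, was lost under the same settings as that of Mir146a except without DEX library 2. In CAF+DEX against Control the median was -0.24, again with 6 negative estimates, while 47.1% of all features were higher, and 0 passed in limma. Most of the summed level of the 6 came from Mir146a and Mir142, at means of 113697 and 122740 FPKM in Control, while Mir155 averaged 834 FPKM in CAF+DEX and 833 in DEX. The sum lay between 256370 and 291122 FPKM in Control and between 252967 and 288492 in DEX. With caffeine it lay between 170746 and 209357 in CAF and between 191008 and 234448 in CAF+DEX, with no marker at 0 in any library. The 3 erythroid markers summed to between 12584 and 15141 FPKM in Control, 11313 and 15213 in DEX, 7502 and 14237 in CAF, and 10589 and 11747 in CAF+DEX, again with none at 0. Their part in the levels of Mir221 was not tested. The 8 hepatocyte markers had a median log2 difference of 0.02 in CAF against Control, with 7 higher and 1 lower. In CAF+DEX against Control the median was 0.02, with 4 higher and 4 lower, and 0 passed in either. These medians hide Mir802, first of the 8 by the F test (limma adjusted p = 0.243). Its mean was 80488 ± 5605 FPKM (SD, n = 3) in Control, 103020 ± 6348 in CAF, 84404 ± 2354 in DEX and 98487 ± 15168 in CAF+DEX. In whole liver, fewer cells of a type and less RNA per cell cannot be told apart.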

How the data were processed

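Per the labels' protocols, small RNA from liver was sequenced with a QIAseq kit whose primer carries molecular indices, and whether these were collapsed is not stated in the sources at hand. Per the submitters' processing notes, the tools were cutadapt 3.7, STAR 2.7.11b and featureCounts of Subread 2.0.6, with genome build rn7. As deposited, values are in FPKM and were scaled by the authors per 1000000 reads on the 444 features of the table: FPKM times length in kilobases summed to 1000000 in each library. Feature length in bases is per the file headers.

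Reads were recovered as multiples of 0.01 read, as when reads with several places are shared, and 50.5 to 58.3% of features above 0 had whole reads. Mir222 had whole reads in all 12 libraries and Mir221 in 8. Column headers number the libraries within a group and could be matched to groups but not to titles. Tests used limma 3.58.1 in R 4.3.3, tested on simulated data, and permutation tests in SciPy 1.17.1. The members and lists were chosen with earlier results of these data known. Named features are the members, the 5 of most like pattern for each, up to 3 per list by the F test and the most abundant feature. Alternatives were other pseudocounts, filters, scalings and fits, and leaving out each library.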

Additional observations from a re-analysis of the deposited data

How the results depend on the processing

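Of 495 other values of the 24 log2 differences, 0 passed the threshold. The lowest limma adjusted p was 0.193, for Mir221 in the caffeine main effect without CAF library 1. Quantile normalization hardly tested Mir21 (see above). The sign changed in 39. Of these, the caffeine main effect turned to 0.0070 for Mir21 with median-of-ratios scaling and to 0.079 for Mir222 with quantile normalization, and the others came from the block described below or from leaving out 1 library, where limma pools the spread over groups. With 1 library left out, Mir21 ranged from -0.058 to 0.066 in DEX against Control, from -0.21 to 0.052 in CAF+DEX against Control, from -0.25 to 0.012 in CAF+DEX against CAF, from -0.22 to 0.038 in CAF+DEX against DEX, from -0.091 to 0.039 in the caffeine main effect and from -0.12 to 0.013 in the dextromethorphan main effect. Mir221 ranged from -0.035 to 0.29 in DEX against Control, from -0.38 to 0.097 in CAF+DEX against CAF, from -0.46 to 0.018 in the interaction and from -0.15 to 0.088 in the dextromethorphan main effect. Mir222 ranged from -0.23 to 0.14 in DEX against Control, from -0.15 to 0.22 in CAF+DEX against Control, from -0.010 to 0.20 in CAF+DEX against DEX and from -0.16 to 0.022 in the caffeine main effect. The log2 ratio of Mir221 to Mir222 ranged from -0.33 to 0.21 in CAF against Control and from -0.098 to 0.32 in DEX against Control, and r of Mir221 with Mir222 from -0.20 to 0.15. The cause of these sign changes was not tested.

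Over all features, CAF against Control had 2 calls. This count was 0 when the filter was dropped, when other groups left the fit, or when Control library 1 or 3 or CAF library 2 or 5 was left out. It was 1 with DEX library 2 left out, 4 with CAF+DEX library 1 left out or quantile normalization, 5 with Control library 4 left out and 10 with CAF library 1 left out. The 2 in the caffeine main effect became 1 without CAF library 2 or Control library 3, 8 without CAF+DEX library 1, 6 without CAF+DEX library 2, 10 without CAF library 1 or with the stricter filter, and 11 with median-of-ratios scaling. The 0 calls became 2 with the larger pseudocount and 1 with quantile normalization in CAF+DEX against Control, and 1 at most in CAF+DEX against DEX, DEX against Control and the interaction. Depth limits Mir222, at 20 to 38 reads. The F tests, r under scaling and the ratio in reads were chosen after seeing the data.

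Header numbers recur across groups but are not those of the titles, so what they mark is unknown. Libraries of the same number did not deviate together over the 293 features, but treated ones did for Mir221. Over all features, r of deviations from group means was -0.13 to 0.10 in 11 pairs, 1 over 0.1. 0 of 11 libraries correlated best with their own number. A fit with the header number as a replicate block, added after seeing the data, gave 0 calls in CAF against Control and in the caffeine main effect (limma adjusted p = 0.305 and 0.227 for Mir146a) and passed no member. In it Mir21 turned to 0.068 in CAF+DEX against Control, 0.023 in CAF+DEX against DEX and 0.092 in the caffeine main effect. Mir221 turned to 0.33 in CAF against Control, 0.18 in CAF+DEX against Control, 0.080 in the caffeine main effect and 0.10 in the dextromethorphan main effect. Mir222 turned to 0.15 in DEX against Control and 0.024 in the caffeine main effect. For Mir221 in CAF+DEX against CAF, where the 3 header numbers are the same, the difference was -0.15 (SE 0.095, limma adjusted p = 0.902) and CAF+DEX was lower at 3 of 3 numbers. The planned block on the numbers of the titles could not be fitted.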
